A study of Homo sapiens with 8 samples.

Results

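The 44 genes described here encode the parts of the DNA replication machinery other than the MCM helicase. They were chosen by function, with earlier results of these data known. The list of gene symbols covers origin licensing, helicase activation, polymerases, the sliding clamp and its loader, and DNA-binding and joining factors. It also covers nucleotide supply, chromatin assembly, fork protection and E2F factors. All 44 symbols were found among the 31710 genes of the count table, and all 44 passed the filter on low counts that left 16972 genes for testing. RNA was sequenced from Huh7 and Hep3B, established human lines grown from liver cancers, with 1 library for each of 4 treatments in each line. Cells got no drug (control), sertraline alone, 10 days of XL413, or 10 days of XL413 and then 24 hours of sertraline. XL413 inhibits CDC7, the kinase that starts replication at licensed origins, and the labels state that it was given to make the cells senescent. Sertraline, given to patients against depression, inhibits uptake of serotonin. The labels give neither the duration of sertraline alone nor any dose.

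Replication starts in G1 phase, when ORC, CDC6 and CDT1 load MCM rings onto origins, a step called licensing. In S phase CDC45 and the GINS complex turn the loaded rings into working helicases, and polymerases alpha, delta and epsilon copy the strands with the help of the clamp PCNA and its loader RFC. The mRNAs of many of these proteins are made from late G1 into S phase under the control of E2F transcription factors, so their level in bulk RNA is higher where more cells are dividing. Liver cancer cell lines divide continuously in culture, unlike most cells of adult liver. In bulk samples, fewer cells in a phase and less RNA per cell cannot be told apart.

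The libraries held 20275392 to 30842770 reads, the fewest in Hep3B given XL413 and the most in Hep3B given both drugs. A gene of the replication list had between 188 and 9388 reads in a library. Levels are given as CPM, read counts brought to a common library size with the trimmed mean of M-values (TMM). All 10 liver markers were expressed, with a summed level of 30400 to 51500 CPM over the libraries. XL413 lowered 5 of the 10 inside Huh7 and 6 inside Hep3B, where it raised TTR (transthyretin), and of the 10 sertraline against control raised TF (transferrin) and lowered none. The 8 markers of immune, endothelial and fibroblast cells summed to 56.3 to 237 CPM in Huh7 and 13.9 to 30.5 CPM in Hep3B. The immune markers PTPRC, CD68 and CD3E stayed at or under 0.245 CPM, and the endothelial VWF was at 0 in all 4 Hep3B libraries. COL1A1, COL1A2 and PDGFRB, genes of fibroblasts and pericytes, made up most of the sum. PDGFRB had 31.3, 14, 17.2 and 9.37 CPM in Huh7 and 21.6, 10.9, 13.9 and 6.42 CPM in Hep3B for control, sertraline, XL413 and both drugs, so that each drug library was below the control of its line. It fell by 1.08 ± 0.15 with sertraline and by 1.74 ± 0.15 with both drugs (edgeR adjusted p of 0.0101 and 0.00475), and the endothelial PECAM1 fell by 1.32 ± 0.34 with both drugs (edgeR adjusted p = 0.0494). Not all of the 8 markers fell. Inside Huh7, XL413 raised 2 of the 5 that passed the filter and lowered 2, against 11.6% of all genes raised and 8.99% lowered. The sum of the 8 was 138 CPM in the Huh7 control and 237 CPM in Huh7 with XL413. Inside Hep3B, XL413 raised none and lowered 1, against 8.84% and 8.21% of all genes. The part of these markers in the results for the replication genes was not tested. The labels do not say whether each library had a culture of its own. The lines served as the replicates of a treatment, so p-values for treatments set a change against the spread of responses between 2 lines, which may be partly technical.

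The start regions of the genes were compared with the sequence that E2F factors bind. RefSeq promoters of GRCh38.p14, from 250 bases before to 50 bases after the start site, matched 39 of the 44 genes. GINS4, POLD3, RPA2, RPA3 and E2F8 had no match and were not searched. Of the 44, E2F8 had the smallest p for sertraline against control. An E2F motif, spelled TTT, then 2 bases that are each C or G, then CGC, on either strand, was present in 17 of the 39, against 5.03% of the 11001 tested genes with a promoter. A CCAAT box was present in 22 of the 39, against 36.6%, and the letters of the cell cycle element CHR (TTTGAA), which is tied to genes of the mitotic phase, in 1 of 39, against 10.1%. Each of these 3 motifs was searched on both strands. The promoters below belong to the 4 matched genes with an E2F motif and the smallest p for sertraline against control. They are shown 5′ to 3′ on the strand of the gene, with the motif in capitals. The stretches are chr13:33817899-33818198 (+ strand) for RFC3, chr1:35769929-35770228 (- strand) for CLSPN, chr11:65261712-65262011 (+ strand) for POLA2 and chr20:25407423-25407722 (+ strand) for GINS1.
RFC3: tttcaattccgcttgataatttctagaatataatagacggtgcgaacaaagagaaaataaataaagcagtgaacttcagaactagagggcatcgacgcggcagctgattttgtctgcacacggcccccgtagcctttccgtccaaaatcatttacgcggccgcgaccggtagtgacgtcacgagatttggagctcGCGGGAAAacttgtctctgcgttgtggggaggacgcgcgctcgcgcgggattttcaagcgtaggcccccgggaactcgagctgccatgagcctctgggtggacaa
CLSPN: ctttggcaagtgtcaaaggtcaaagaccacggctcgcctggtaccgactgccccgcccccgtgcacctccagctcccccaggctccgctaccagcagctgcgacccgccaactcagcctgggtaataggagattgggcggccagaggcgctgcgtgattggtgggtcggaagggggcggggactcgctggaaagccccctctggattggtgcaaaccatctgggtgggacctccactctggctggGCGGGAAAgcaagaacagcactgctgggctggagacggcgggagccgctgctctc
POLA2: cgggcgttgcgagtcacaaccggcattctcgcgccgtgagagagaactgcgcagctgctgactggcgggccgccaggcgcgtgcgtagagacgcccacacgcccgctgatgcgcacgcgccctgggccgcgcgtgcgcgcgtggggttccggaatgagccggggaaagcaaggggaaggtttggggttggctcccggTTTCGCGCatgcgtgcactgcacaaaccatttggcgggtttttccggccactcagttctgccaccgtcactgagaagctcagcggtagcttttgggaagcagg
GINS1: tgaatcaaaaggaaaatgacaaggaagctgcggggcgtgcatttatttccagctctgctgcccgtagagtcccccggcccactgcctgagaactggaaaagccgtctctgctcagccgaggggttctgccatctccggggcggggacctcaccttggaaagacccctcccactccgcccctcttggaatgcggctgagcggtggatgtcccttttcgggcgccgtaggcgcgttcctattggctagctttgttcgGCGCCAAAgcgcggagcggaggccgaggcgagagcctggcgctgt
The motif begins at position -55 from the start site in RFC3, -53 in POLA2, -5 in CLSPN and 5 in GINS1. The CLSPN stretch also holds 3 CCAAT boxes and that of GINS1 holds 1. A match of letters describes the sequence and is not evidence of binding. The median log2 change with sertraline was -0.50 over the 17 genes with the motif and -0.42 over the 22 without it, and both sets held genes that fell and genes that did not pass the test.

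Without drug, the summed level of the 44 genes was nearly the same in the lines, 3764 CPM in Huh7 and 3765 CPM in Hep3B. Per kilobase of exon, which allows levels of different genes to be compared, PCNA was highest in both control libraries, at 169 CPM per kilobase in Huh7 and 144 in Hep3B. FEN1, the nuclease that trims Okazaki fragments, followed at 119.6 and 75.9 CPM per kilobase. E2F2, an activating E2F factor, was lowest, at 2.51 in Huh7 and 3.11 in Hep3B. Of polymerase subunits, POLD2, the small subunit of polymerase delta, stood at 36.7 and 57.2 CPM per kilobase, while POLD3, another subunit of that enzyme, stood at 4.29 and 3.61.

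**Figure D1:**
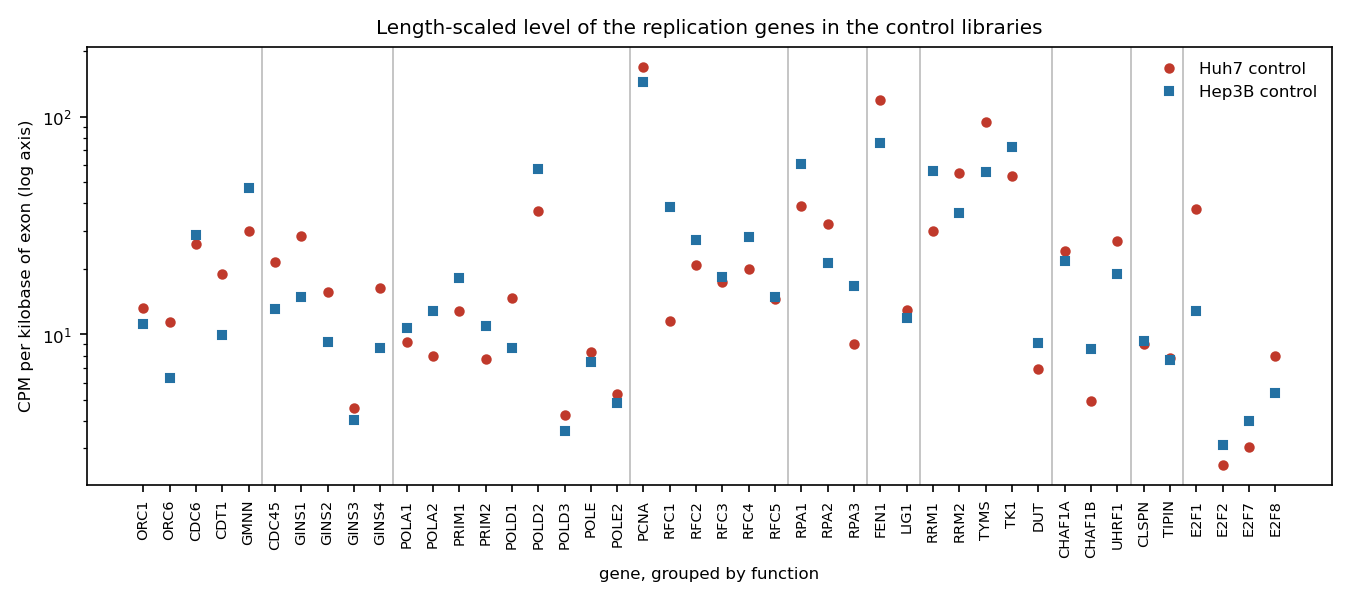
Level of the 44 genes in the control libraries, in CPM per kilobase of exon on a log axis, with 1 point per line and vertical lines between function groups. PCNA lies highest in both lines, at 169 in Huh7 and 144 in Hep3B, and RFC1 and E2F1 show the widest gaps between the lines.

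The balance between genes differed by line. Over all treatments, 10 of the 44 genes were higher and 18 lower in Huh7 than in Hep3B by edgeR's quasi-likelihood test with Benjamini-Hochberg adjustment over all genes, at an adjusted p under 0.05. This is near the background, since 62.7% of all genes differed between the lines, 31.4% of all genes in each direction. RFC1, the large subunit of the clamp loader, had 77.1, 83.6, 69.7 and 85.8 CPM in Huh7 and 259, 264, 247 and 248 CPM in Hep3B, in the order control, sertraline, XL413 and both drugs, which is the order used for all levels here. The lines did not overlap, and the log2 difference was -1.69 ± 0.09 (SE; adjusted p = 1.45e-06 by edgeR). The libraries of a line are different treatments of the same cells. Tests of the lines therefore set a difference against how it varied over treatments, not against the spread between cultures. E2F1, the founding activator of the E2F family, had 93.8, 87.6, 84.3 and 65.5 CPM in Huh7 and 32.1, 29.3, 35.7 and 32.4 CPM in Hep3B. It was higher in every Huh7 library than in any Hep3B library, by 1.35 ± 0.11 on the log2 scale. CDC45 and 2 of the 4 GINS subunits, GINS1 and GINS4, were higher in Huh7, while 5 of the 9 polymerase and primase genes were lower there and none was higher.

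Sertraline against control asks what the antidepressant does to cells that had not been pretreated. Replication genes were lower with sertraline across nearly all roles and in both lines: 40 of the 44 had a lower level in both, against 32.4% of all genes. Their summed level with the drug was 2758 CPM in Huh7 and 2759 CPM in Hep3B, below the 3764 and 3765 CPM of the controls. By edgeR, 4 of the 44 genes fell, each from another role, and none rose, against 1.94% of all genes that fell and 2.96% that rose. The median log2 change of the 44 was -0.48, and that of all genes was 0.01.

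E2F8, a repressive member of the E2F family, had 32.9, 15.7, 25.2 and 11.6 CPM in Huh7 and 22.2, 8.48, 15.2 and 9.88 CPM in Hep3B. Both sertraline libraries lay below both controls, and it fell by 1.22 ± 0.18 on the log2 scale (edgeR adjusted p = 0.0122). RRM2, the small subunit of ribonucleotide reductase and the limiting one for making deoxynucleotides (GRCh38 chromosome 2, 10122328 to 10131419), had 295, 139, 233 and 87.2 CPM in Huh7 and 193, 79.99, 164 and 100.2 CPM in Hep3B. It was lower in every library with sertraline than in any without, and fell by 1.17 ± 0.21 (edgeR adjusted p = 0.0237). CLSPN, the claspin adaptor that carries the checkpoint signal from ATR to CHK1, had 49, 28.3, 40.5 and 19.7 CPM in Huh7 and 50.7, 21.8, 46.3 and 32.3 CPM in Hep3B. It too was below all libraries without the drug in each library with it, and it fell by 0.98 ± 0.22 (edgeR adjusted p = 0.0463). RFC3, a small subunit of the clamp loader (GRCh38 chromosome 13, 33818049 to 33966558), had 49.9, 36.2, 48.5 and 37.4 CPM in Huh7 and 52.5, 26.8, 46.5 and 35 CPM in Hep3B. Its sertraline libraries did not overlap the others, and it fell by 0.71 ± 0.15 (edgeR adjusted p = 0.0347).

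The other genes did not pass the adjusted test. At an unadjusted p under 0.05, 26 of the 44 had a lower level, the 4 called genes among them, against 10.6% of all genes. Helicase activation factors were lower throughout, with log2 changes of -0.67 for CDC45 to -0.37 for GINS2, and GINS1, GINS3 and GINS4 between. Among polymerase and primase genes the range was from -0.65 for POLE2 to 0.02 for POLD2, with -0.60 for both POLA2 and POLD3. Nucleotide supply genes ranged from -1.17 for RRM2 to -0.32 for DUT, which keeps uracil out of DNA. TK1, the cytosolic thymidine kinase of S phase, had 99.2, 39.1, 93.7 and 31.7 CPM in Huh7 and 135, 85, 172 and 114 CPM in Hep3B, with a log2 change of -1.03 ± 0.27 (edgeR adjusted p = 0.0715). In each line its sertraline libraries lay below the others, and the drop was larger in Huh7. UHRF1, which brings DNA methyltransferase to new DNA, had 138, 76.8, 95.9 and 41.3 CPM in Huh7 and 97.7, 49, 121 and 80.2 CPM in Hep3B, with a log2 change of -0.91 ± 0.34 (edgeR adjusted p = 0.163). In licensing, ORC1 and ORC6 had log2 changes of -0.60 and -0.45, and CDT1 had 0.41. CDC6, the ATPase that brings CDT1 to origins, had -0.30, and GMNN had -0.26. The catalytic subunits POLA1, POLD1 and POLE had -0.44, -0.39 and -0.30, and the primase subunits PRIM1 and PRIM2 had -0.07 and -0.41. PCNA had -0.46, and the loader subunits other than RFC3 ranged from -0.36 for RFC5 to 0.07 for RFC1, with -0.16 for RFC2 and -0.27 for RFC4. The single-strand binding genes RPA1, RPA2 and RPA3 had -0.49, -0.51 and -0.24, FEN1 had -0.57 and LIG1 had -0.29. RRM1, the large subunit of ribonucleotide reductase, had -0.53 and TYMS had -0.61. The chromatin genes CHAF1A and CHAF1B had -0.44 and -0.39, TIPIN had -0.66, and the E2F factors E2F1, E2F2 and E2F7 had -0.11, -0.50 and -0.58.

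**Figure D2:**
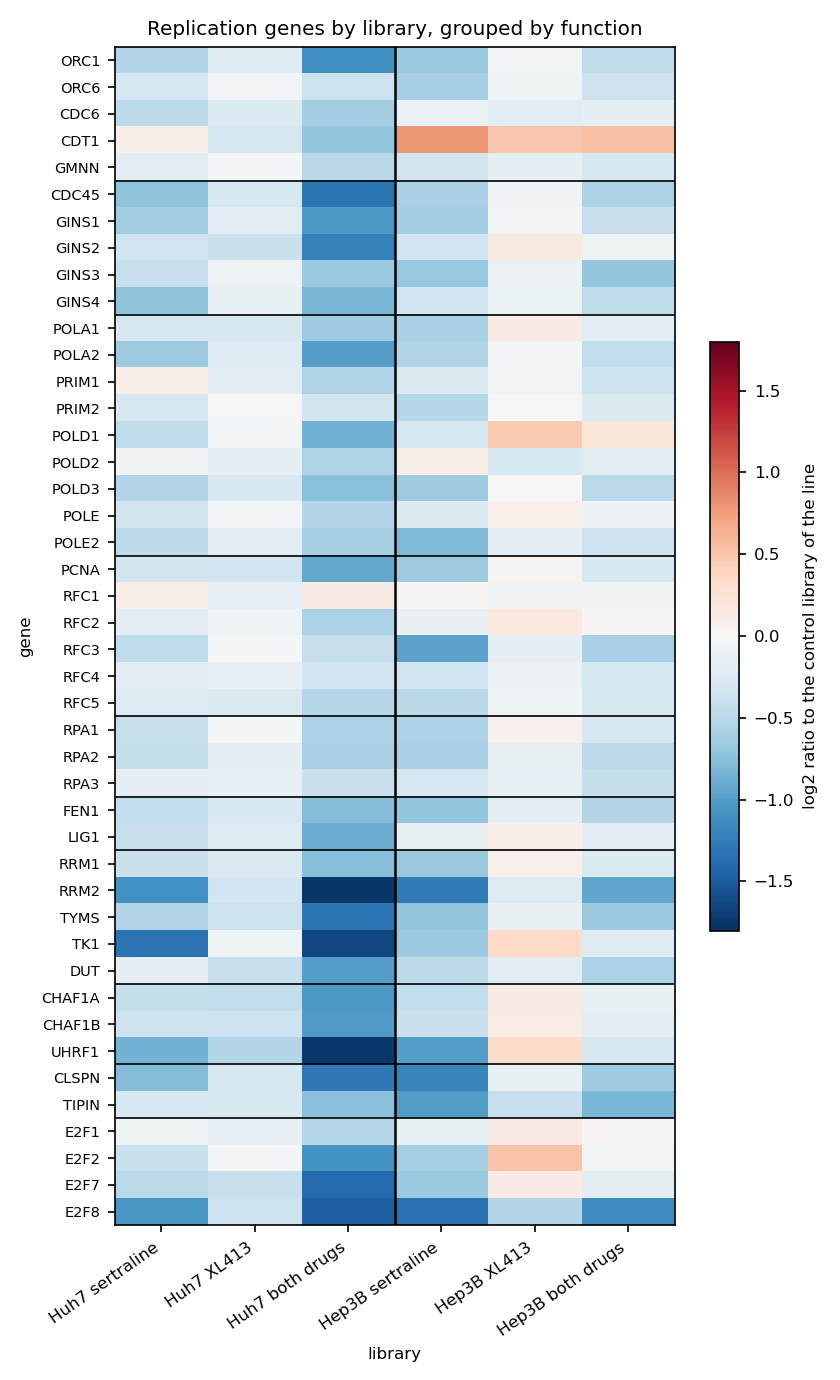
Log2 ratio of each gene in 6 libraries to the control library of the same line, with 1 row per gene, black lines between function groups and 1 column per library (1 library each, no replicates). Blue is lower and red higher: nearly all rows are blue in both sertraline columns, the Huh7 column with both drugs is darkest with a median of -0.76, and the Hep3B column with XL413 has both colors.

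The 4 calls depended on single libraries. None remained without the control library of either line or without the Hep3B sertraline library, and 2 remained without either XL413 library. With drug effects fitted inside each line, where the spread is the departure from additive drug effects and not the spread between cultures, sertraline lowered 36 of the 44 genes in Huh7 and raised none, against 13.6% of all genes lowered and 14.3% raised. In Hep3B it lowered 33 and raised CDT1, against 12.3% and 11.8% of all genes. The Huh7 count was 12 without the XL413 or the both-drug library of that line, and the Hep3B count of 34 in all was 11 without the Hep3B control and 14 without the Hep3B sertraline library. TK1 was the only gene of the 44 called for a difference between the lines in its sertraline effect, with -1.45 ± 0.10 in Huh7 and -0.63 ± 0.09 in Hep3B (difference 0.83 ± 0.14; edgeR adjusted p = 0.00131; 2.57% of all genes had a higher value in Hep3B and 1.77% a lower one). This count was 2 without the Hep3B control or sertraline library and 4 without the Hep3B XL413 or both-drug library.

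Sertraline was also given to cells that had been exposed to XL413, and the comparison with XL413 alone asks whether the drug acts in the same way there. Levels were lower with sertraline in both lines for 40 of the 44 genes, against 33.7% of all genes. The median log2 change was -0.45, beside 0.0027 for all genes. No replication gene passed the adjusted test by edgeR, against 0.271% of all genes that fell and 0.666% that rose, while 25 were lower at an unadjusted p under 0.05, against 8.31% of all genes. DESeq2 called 10 lower and limma voom 1, counts that have no share of all genes beside them and are not set against a background. RRM2 had -1.03 ± 0.21 and TK1 -1.02 ± 0.27, and E2F8 had -0.87 ± 0.18, with edgeR adjusted p of 0.0705, 0.131 and 0.0738. The medians inside a line were -0.53 in Huh7 and -0.34 in Hep3B, as ratios of single libraries. The interaction of the drugs, which tests whether the sertraline effect differed with pretreatment, called none of the 44 and 0% of all genes. None of the 44 had an unadjusted p under 0.05 for it, against 0.542% of all genes with a lower and 0.283% with a higher value, and DESeq2 and limma voom called none. Its median over the genes was 0.02, and the lowest and highest values were -0.56 for CDT1 and 0.35 for E2F8. The interaction is averaged over the lines, so it cannot show shifts that run in opposite directions in them. In single libraries, the median log2 ratio for sertraline went from -0.42 without XL413 to -0.53 after it in Huh7. In Hep3B it went from -0.57 to -0.34. The absence of calls therefore does not show that pretreatment left the sertraline effect unchanged in each line.

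XL413 against control asks what 10 days of CDC7 inhibition left behind. Averaged over the lines, replication genes differed little: the median log2 change was -0.13, and the levels of 26 of the 44 were lower in both lines, against 29.7% of all genes. No gene was called by edgeR, nor by DESeq2 or limma voom, as for 0% of all genes by edgeR. At an unadjusted p under 0.05, 1 of the 44 was lower, E2F8, with -0.46 ± 0.18, against 4.22% of all genes. The lines differed in this comparison. In Huh7 the level of 43 of the 44 was below that of the control library, with a median log2 ratio of -0.23. In Hep3B 26 were below and 18 above, with a median of -0.05 under TMM and 0.04 when libraries were scaled to their total counts.

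Fitted inside Huh7, over the pairs of libraries with and without sertraline, XL413 lowered 23 of the 44 genes and raised none, against 8.99% of all genes lowered and 11.6% raised. All 3 chromatin assembly and maintenance genes fell, as did 4 of the 5 nucleotide supply genes and 3 of the 5 helicase activation genes. UHRF1 fell by 0.71 ± 0.11, and E2F7, a repressive E2F factor, by 0.66 ± 0.14. GINS2, a subunit of the active helicase, had 51.2, 39.8, 38.6 and 21.8 CPM in Huh7 and 30.2, 23.4, 33.8 and 28.3 CPM in Hep3B, and fell in Huh7 by 0.63 ± 0.11. TYMS, thymidylate synthase, had 234, 162, 178 and 94.4 CPM in Huh7 and 137, 83.8, 125 and 86.3 CPM in Hep3B. Its Huh7 level with XL413 was below that without it at each setting of sertraline, and it fell there by 0.58 ± 0.10. In Hep3B, XL413 raised 4 of the 44 genes, POLD1, TK1, UHRF1 and E2F2, and lowered 1, POLD2. The raised count is near the background of 8.84% of all genes, and the lowered count is below the 8.21% of all genes lowered. Total-count scaling gave 9 raised and none lowered in Hep3B, and 11 lowered in Huh7, with no share of all genes beside these counts. The Huh7 count was 15 without the control or the XL413 library of that line, and 1 without its sertraline or its both-drug library. The Hep3B count was 9 without its control or its XL413 library.

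The difference between the lines was tested itself, for the XL413 effect averaged over the pairs of libraries with and without sertraline. For 15 of the 44 genes the XL413 effect was higher in Hep3B than in Huh7, and for none was it lower, against 3.94% and 4.96% of all genes. In single libraries without sertraline, the median log2 ratio for XL413 over the 44 was -0.23 in Huh7 and -0.05 in Hep3B. With sertraline it was -0.39 and 0.19, so the lines lay further apart there. The 15 were CDT1, GINS2, POLA1, POLD1, PCNA, RRM1, RRM2, TYMS, TK1, CHAF1A, CHAF1B, UHRF1, CLSPN, E2F2 and E2F7. By role, these were 3 of 3 chromatin assembly and maintenance genes, 4 of 5 nucleotide supply genes, 2 of 4 E2F factors, 2 of 9 polymerase and primase genes and none of the 3 single-strand binding genes. The largest difference was that of UHRF1, at 1.22 ± 0.16 (edgeR adjusted p = 5.03e-05), from -0.71 in Huh7 to 0.51 in Hep3B. E2F7 had 19.1, 13.5, 14.4 and 6.97 CPM in Huh7 and 25.1, 15.7, 27.9 and 22.2 CPM in Hep3B, a difference of 0.98 ± 0.19 (edgeR adjusted p = 0.00258). The 2 subunits of the histone chaperone CAF-1 measured here, CHAF1A and CHAF1B, differed by 0.76 ± 0.14 and 0.70 ± 0.16. PCNA had 249, 198, 197 and 131 CPM in Huh7 and 212, 136, 219 and 174 CPM in Hep3B, a difference of 0.66 ± 0.15. POLD1, the catalytic subunit of polymerase delta, had 72.3, 52.6, 69.9 and 39.9 CPM in Huh7 and 42.8, 34.7, 59.4 and 48.9 CPM in Hep3B. It was higher with XL413 than without at each setting of sertraline in Hep3B and lower in Huh7, a difference of 0.70 ± 0.15. LIG1, the ligase that seals Okazaki fragments, had 85.6, 63.9, 72.6 and 45.8 CPM in Huh7 and 78.5, 71.4, 85 and 68.6 CPM in Hep3B and was not among the 15.

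**Figure D3:**
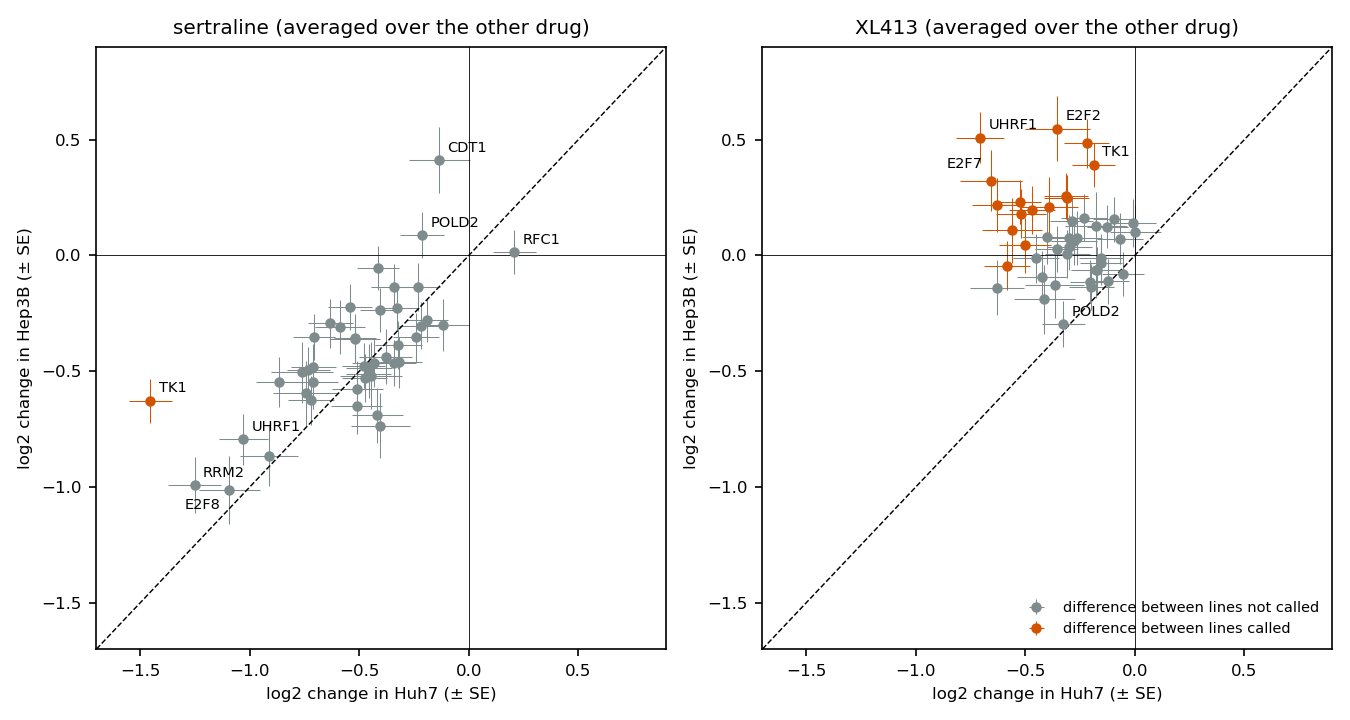
Log2 change of the 44 genes in Huh7 (horizontal) against Hep3B (vertical) for sertraline (left) and XL413 (right), each averaged over the other drug. Bars are 1 SE from the fit inside lines, and the dashed line marks equal change. Orange marks genes whose change differed between the lines, TK1 for sertraline and 15 genes for XL413, all of them above the dashed line.

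This count fell to 2 without the Huh7 sertraline library and to 2 without the Huh7 library given both drugs, and was 23 without the Hep3B control library. MKI67, a marker of dividing cells, had 456, 284, 333 and 186 CPM in Huh7 and 448, 302, 491 and 378 CPM in Hep3B. Like the replication genes it was lowest in Huh7 given both drugs, and in Hep3B it was higher with XL413 than in the control. Its XL413 effect was higher in Hep3B than in Huh7 by 0.76 ± 0.14 (edgeR adjusted p = 0.00202). The part that the share of dividing cells has in these results was not tested.

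Both drugs against control joins the 2 exposures, and it shares its control libraries with the comparisons of sertraline and of XL413 above. Replication genes were lowest in Huh7 given both drugs, where their summed level was 2089 CPM and 43 of the 44 lay below the control library, with a median log2 ratio of -0.76. In Hep3B 40 of the 44 lay below, with a median of -0.30. In both lines 39 lay below, against 31.3% of all genes. Averaged over the lines, 15 genes fell and none rose, against 4.37% and 4.84% of all genes, and the median log2 change was -0.54. Among them were 4 of the 5 helicase activation genes, 3 of the 5 nucleotide supply genes and both fork protection genes.

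In licensing, ORC1, the largest ORC subunit, had 41.6, 28.8, 35.7 and 19.1 CPM in Huh7 and 35.1, 21.9, 33.9 and 25.5 CPM in Hep3B, and fell by 0.78 ± 0.19 (edgeR adjusted p = 0.0438). ORC6, the smallest, had 49.3, 40.01, 47.7 and 37.7 CPM in Huh7 and 27.2, 17.8, 25.9 and 20.8 CPM in Hep3B and did not pass, with -0.39 ± 0.13. Of the licensing genes only ORC1 was called, with sertraline and both-drug libraries below the remaining ones in each line. CDC45, which joins the MCM ring in the active helicase, had 61, 36.7, 48.8 and 24.3 CPM in Huh7 and 37.2, 24.6, 35.6 and 25.3 CPM in Hep3B and fell by 0.93 ± 0.19 (edgeR adjusted p = 0.0254). GINS1 had 115, 74.2, 99.98 and 55.9 CPM in Huh7 and 60.7, 39.6, 58.8 and 45.3 CPM in Hep3B and fell by 0.72 ± 0.16. In both genes the level ran lower in Huh7 with both drugs than with either, whereas in Hep3B sertraline alone gave the lowest library.

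GINS3 had 23.4, 17.4, 22 and 14.5 CPM in Huh7 and 20.6, 12.7, 19.1 and 12.6 CPM in Hep3B and fell by 0.70 ± 0.15. GINS4 had 89.8, 54.3, 81.5 and 50.6 CPM in Huh7 and 47.6, 37, 43.7 and 34.5 CPM in Hep3B and fell by 0.65 ± 0.14. The both-drug library was the lowest of each line for GINS4, and in Hep3B GINS3 was level between the sertraline and the both-drug libraries. POLA2, the accessory subunit of polymerase alpha, which works with primase to start each strand, had 45.4, 28.9, 38.4 and 22.5 CPM in Huh7 and 73.3, 50.1, 71.6 and 53.7 CPM in Hep3B, and fell by 0.72 ± 0.15. POLD3 had 23.6, 16.2, 19.2 and 13.8 CPM in Huh7 and 19.9, 12.6, 19.8 and 14.1 CPM in Hep3B, and fell by 0.63 ± 0.16 (edgeR adjusted p = 0.0471). Both polymerase genes were lower in every library with sertraline than in the libraries of the same line without it. The other 7 polymerase and primase genes were not called.

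RPA2, a subunit of the complex that coats single-stranded DNA, had 65, 48, 58.1 and 43.3 CPM in Huh7 and 42.9, 28.6, 39.2 and 30.8 CPM in Hep3B and fell by 0.53 ± 0.12. RPA1, its largest subunit, had 213, 159, 208 and 143 CPM in Huh7 and 333, 226, 351 and 267 CPM in Hep3B and was not called, with -0.44 ± 0.13 (edgeR adjusted p = 0.0648). FEN1 had 296, 219, 246 and 172 CPM in Huh7 and 188, 115, 166 and 131 CPM in Hep3B and fell by 0.65 ± 0.14. In Hep3B these genes were lowest with sertraline alone, and in Huh7 with both drugs.

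Of the nucleotide supply genes, RRM2 fell by 1.32 ± 0.22, TYMS by 0.97 ± 0.19 and DUT by 0.78 ± 0.19 (edgeR adjusted p of 0.0164, 0.0232 and 0.0406). DUT had 25.5, 22.7, 19.1 and 12.5 CPM in Huh7 and 33.7, 24, 29.5 and 22.6 CPM in Hep3B, with the both-drug library lowest in each line. TIPIN, which with TIMELESS steadies stalled forks, had 21.6, 17.3, 17.8 and 12.6 CPM in Huh7 and 21, 10.2, 15.5 and 11.6 CPM in Hep3B and fell by 0.81 ± 0.20. CLSPN fell by 0.95 ± 0.22 and E2F8 by 1.33 ± 0.18 (edgeR adjusted p = 0.0117). No clamp or clamp loader gene and no chromatin assembly gene was called. The 15 calls also depended on single libraries: none remained without the Hep3B control or the Huh7 both-drug library, 1 without the Huh7 control, 8 without either XL413 library and 9 without the Hep3B both-drug library. Scaling to total counts, which shifted the median of all genes in the Huh7 both-drug library by 0.104 on the log2 scale, left 7.

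**Figure D4:**
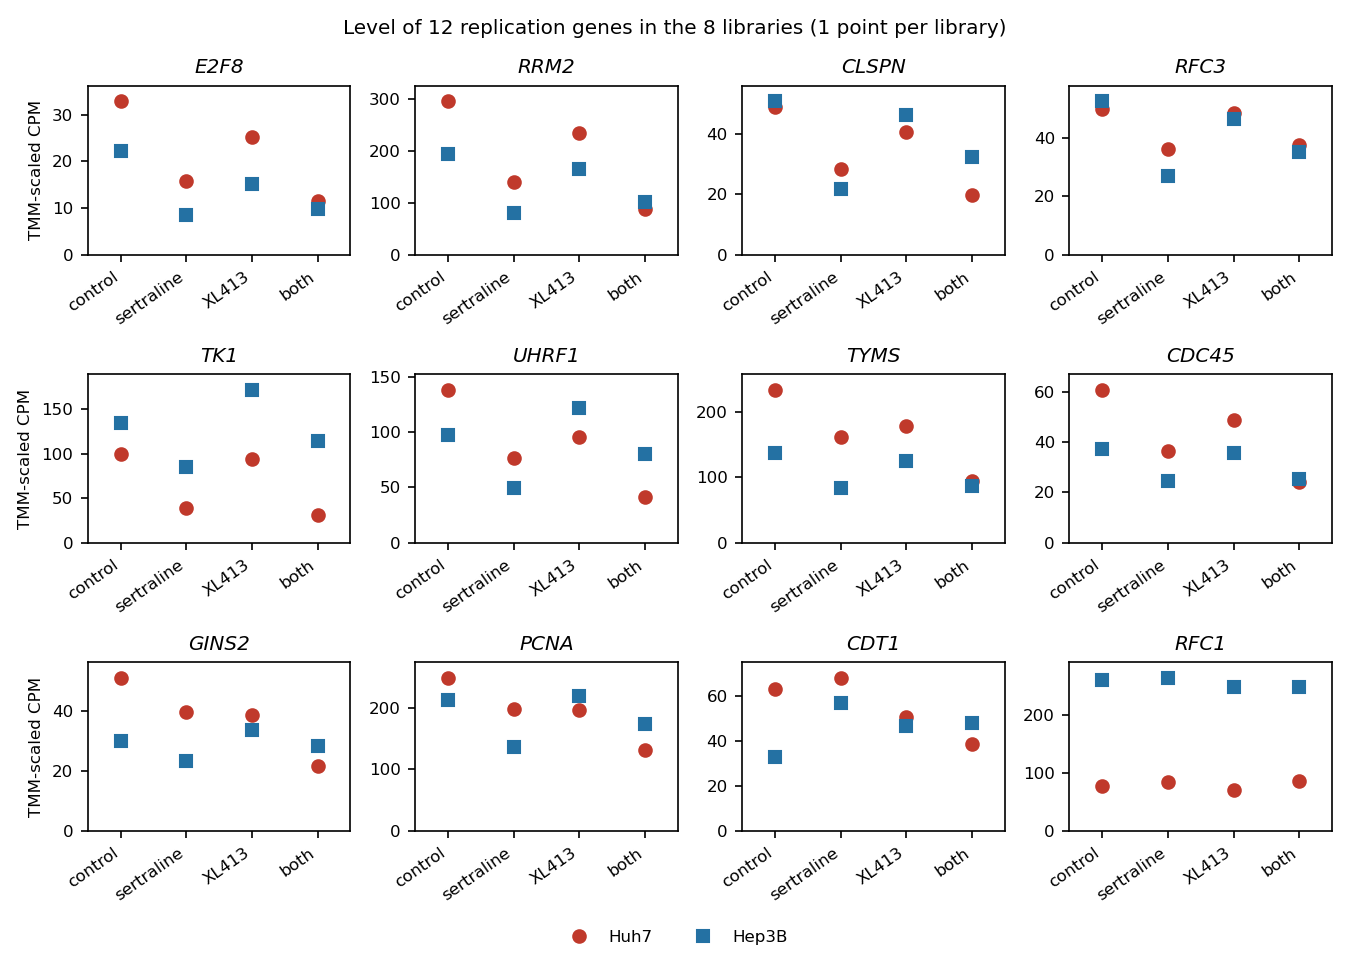
TMM-scaled CPM of 12 of the genes under the 4 treatments (horizontal), with 1 point per library, circles for Huh7 and squares for Hep3B, each vertical axis starting at 0. For RRM2, CLSPN and RFC3 all libraries with sertraline lie below all without it, UHRF1 and TK1 with XL413 go up in Hep3B and not in Huh7, and RFC1 stays near 250 CPM in Hep3B and 80 CPM in Huh7.

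Both drugs against sertraline alone, as single libraries and with no test, gave opposite pictures. In Huh7 42 of the 44 genes were lower with both drugs, with a median log2 ratio of -0.39. In Hep3B 34 were higher, with a median of 0.19. Lower in both lines were 9 of the 44, against 28.8% of all genes.

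A few genes did not follow the rest. CDT1, which helps load MCM and is held in check by GMNN (geminin) once S phase has begun, had 63.1, 68.1, 50.8 and 38.8 CPM in Huh7 and 33, 56.9, 46.5 and 47.8 CPM in Hep3B. In Hep3B every drug library was above the control, and sertraline raised it by 0.41 ± 0.14 inside that line (edgeR adjusted p = 0.0388), a call that was lost under total-count scaling, with DESeq2, and without the Hep3B control or sertraline library, where it was 0.05 and 0.04. RFC1 had log2 ratios to its control of -0.15 to 0.15 in all 6 drug libraries. POLD2 had 136, 129.7, 119.98 and 93.2 CPM in Huh7 and 211, 227, 174 and 183 CPM in Hep3B, so that in Hep3B the XL413 libraries were lower and the sertraline library was not.

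Other replication genes, a list of 65 that holds none of the 44, were set beside them, as 66 identifiers because TFDP2 has 2. With sertraline 5 of the 66 fell and none rose: CCNE2, MCM10, CDCA5, CTPS1 and WDHD1. CCNE2 (cyclin E2) fell by 1.12 ± 0.21 and MCM10, an activator of origins, fell by 0.90 ± 0.19. CDCA5 (sororin), which holds sister chromatids together, fell by 0.67 ± 0.12. CTPS1 (CTP synthase) fell by 0.64 ± 0.14, and the polymerase alpha partner WDHD1 fell by 0.62 ± 0.13. With both drugs 17 of the 66 fell and none rose. The smallest p belonged to CTPS1, DCTPP1, which clears altered deoxynucleotides, CDCA5, MCM10, DSCC1, which helps load PCNA for cohesion, and POLE3, a small subunit of polymerase epsilon. Their log2 changes ran from -1.29 ± 0.20 for DCTPP1 to -0.68 ± 0.12 for CDCA5. The others called were CDC25A, NASP, NME1, TOP2A, DTYMK, TOP1, E2F5, CDCA7, ASF1B, DTL and ORC2, from -0.93 for CDC25A to -0.55 for DTL. The XL413 effect was higher in Hep3B for 15 of the 66 and lower for 3, and HELLS, a chromatin remodeler, had the smallest p at 0.83 ± 0.15 (edgeR adjusted p = 0.00176). After it came the histone chaperone ASF1A with 0.71 ± 0.14, the maintenance methyltransferase DNMT1 with 0.70 ± 0.14, 1 of the 2 identifiers of TFDP2 with 0.69 ± 0.15, the nuclease DNA2 with 0.65 ± 0.15 and FAM111B with 0.83 ± 0.20. The others higher in Hep3B were ASF1B, CHTF18, CDCA7, RNASEH2C, KIAA0101, TOP2A, RNASEH2A, RECQL4 and CDC25A. The 3 that were lower in Hep3B were DCTPP1 with -0.60, POLD4 with -0.79 and RB1 with -0.58. Over all 66 identifiers, the median log2 change with sertraline was -0.33. Of 9 genes of CDC7, its partners and the MCM ring, none was called with sertraline and 5 fell with both drugs, and CDC7 itself, the target of XL413, had 24.9, 18.3, 21.1 and 15.7 CPM in Huh7 and 25.3, 14.6, 22.9 and 17.5 CPM in Hep3B. DBF4, its activating subunit, had a log2 change of -0.10 ± 0.17 with sertraline. Of 25 genes of mitosis 14 fell with sertraline and 20 with both drugs. Their median log2 change with sertraline was -0.62, further below 0 than the -0.48 of the 44 genes. For these lists, the shares of all genes were 1.94% that fell with sertraline and 4.37% that fell with both drugs. For the XL413 effect, 3.94% of all genes were higher in Hep3B and 4.96% lower, so the 3 of 66 that were lower are near the background.

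Some values carry a limit from the annotation. In GENCODE release 29, at least 10% of exon bases are shared with a gene on the opposite strand for GINS3, GINS4, RFC5, TYMS and DUT, and with a gene on the same strand for POLA2, PRIM1, RRM2 and TIPIN. For TYMS the share was 46.6%, with ENOSF1 and TYMSOS. Pseudogenes named after the gene are annotated for 9 of the 44, DUT having 8. How the counting treated strand and reads with several matches is not named in the labels, which makes the levels of these genes less certain.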

How the data were processed

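Poly(A)-selected, stranded RNA libraries, 1 per cell line and treatment, were used through the read counts per Ensembl gene that the authors deposited, which are whole numbers without normalization. The submitters' processing notes name HISAT2, HTSeq and the build GRCh38 (hg38), with no versions, strand setting or annotation release. Columns were tied to libraries by title, and 0 columns belonged to other samples.

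The genes, lists and tests were chosen with earlier results of these data known. The filter filterByExpr, applied on the treatment groups, kept 16972 of 31710 genes and removed 14738. After TMM scaling, edgeR 4.0.16 in R 4.3.3 (estimateDisp, glmQLFit, glmQLFTest) fitted all 8 libraries on line and treatment, which left 3 residual degrees of freedom. A further fit had a term for line and, in each line, terms for XL413 and for sertraline. It left 2 residual degrees of freedom and gave the effects inside a line and their differences. Genes were called at a Benjamini-Hochberg adjusted p under 0.05, adjusted over every gene tested. SEs were computed as the size of the log2 change divided by the square root of F. Libraries of a line share their cells, which is where the pairing comes from, and their deviations from treatment means had correlations of 0.885 to 0.946. Ratios of single libraries had a pseudocount of 0.5 CPM and no test. CPM per kilobase used merged exons of GENCODE release 29. The depth, 20275392 to 30842770 reads in a library, limits counting precision only for genes with few reads, and tells nothing of the spread between cultures.

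Levels in every library are given for each gene called in a comparison of 2 treatments over both lines, and in each function group for the genes with the smallest p for sertraline and for the difference in XL413 effect. RFC1, E2F1 and POLD2 were added after their values were seen. Other replication genes are named where called with sertraline or with both drugs against control or for the difference in XL413 effect, with values for those of smallest p. Promoters are from RefSeq on GRCh38.p14. The fits were also run on simulated counts. Their means were the same in both lines apart from the changes put in, and their noise was independent between libraries. This setting differs from that of the real libraries, so the run does not show how the fits perform on them. The alternatives were DESeq2 1.42.0 as a test and for size factors, voom in limma 3.58.1, scaling by total counts, filters of none and of at least 10 reads in every library, an adjusted p under 0.10, pseudocounts of 0.1 and 1 CPM, no term for line, line-specific drug effects with 1 residual degree of freedom, and each library left out. Figures were drawn with matplotlib 3.10.9 in Python 3.11.15.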

Additional observations from a re-analysis of the deposited data

Results flagged for a closer look

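For 15 of the 44 genes the effect of XL413 differed between the lines by the test of the difference itself, each with a higher value in Hep3B. This effect is averaged over the libraries with and without sertraline. The differences, as the log2 change in Hep3B minus that in Huh7, were 0.67 for CDT1, 0.85 for GINS2, 0.57 for POLA1, 0.70 for POLD1 and 0.66 for PCNA. They were 0.56 for RRM1, 0.55 for RRM2, 0.54 for TYMS and 0.58 for TK1, 4 of the 5 genes of nucleotide supply. They were 0.76 for CHAF1A, 0.70 for CHAF1B, 1.22 for UHRF1 and 0.60 for CLSPN, and 0.90 for E2F2 and 0.98 for E2F7. UHRF1 went from -0.71 in Huh7 to 0.51 in Hep3B, and E2F7 from -0.66 to 0.32. As effects averaged over sertraline, TYMS was the only one of the 15 with a value below 0 in both lines, at -0.58 in Huh7 and -0.04 in Hep3B. In single libraries without sertraline, the log2 ratio of XL413 to control was also below 0 in both lines for RRM2 and CLSPN. RRM2 had -0.34 in Huh7 and -0.23 in Hep3B, and CLSPN had -0.27 and -0.13. For both drugs against sertraline, RRM2 had -0.67 and 0.32, and CLSPN had -0.51 and 0.56. The edgeR adjusted p-values of the 15 ran from 5.03e-05 for UHRF1 to 0.0486 for CLSPN. For sertraline, TK1 differed between the lines by 0.83 with an edgeR adjusted p of 0.00131. Each effect rests on 2 libraries against 2 inside a line.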

How the results depend on the processing

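The counts of genes called changed with the test, the filter and the model. The shares of all genes given in the text belong to edgeR with TMM scaling, the filter and all 8 libraries. Counts under the alternatives, here and above, have no such share beside them and are not set against a background. In the order sertraline against control, both drugs against XL413 and both drugs against control, the counts were 4, 0 and 15. They were 19, 10 and 22 with DESeq2, 17, 8 and 26 with no filter, and 17, 2 and 22 at an adjusted p under 0.10. Voom gave 1 for both drugs against XL413. With drug effects specific to each line they were 39, 38 and 42, with 5 for XL413 against control and 1 for the interaction. Without the replicate block of cell line, the counts for sertraline and for both drugs against control were 0 and 0. Total-count scaling gave 7 for both drugs against control, and for XL413 11 in Huh7 and 9 in Hep3B. It turned the median log2 ratio of Hep3B with XL413 from -0.0524 to 0.0418. For XL413, DESeq2 gave 13 in Huh7 and 3 in Hep3B, and an adjusted p under 0.10 gave 8 in Hep3B. Leaving out 1 library at a time gave 0 to 6 for sertraline, 0 to 1 for both drugs against XL413 and 0 to 17 for both drugs against control. It gave 24 to 27 for Huh7 against Hep3B, and 0 throughout for XL413 against control and for the interaction. Inside lines it gave 1 to 27 for XL413 and 12 to 38 for sertraline in Huh7, and 4 to 9 and 11 to 34 in Hep3B. The differences between lines ran from 2 to 23 for XL413 and from 1 to 4 for sertraline. Where leaving out a library leaves 1 library for a treatment, that library is assumed to vary like the others. The cause of these shifts was not tested. For 211 log2 changes of single genes among the 44, those called in a comparison and the uncalled ones given in the text, the alternatives of test, scaling, filter, threshold, model and library gave 2747 values with the same direction and side of the threshold, 435 that lost the call and 111 that gained one. Another 6 changed sign, each an uncalled sertraline change near 0. POLD2 had -0.00344 under total-count scaling, and without 1 library it ran from -0.0435 to 0.0859, PRIM1 from -0.31 to 0.16 and E2F1 from -0.28 to 0.0346. Uncalled changes of the 44 in other comparisons were not followed singly. Without 1 library the median over the 44 ran from -0.22 to 0.23 for the interaction and from -0.06 to 0.21 for XL413 inside Hep3B. The lowest count of the 44, 188 reads, was in Huh7 given both drugs, a library of 28902625 reads. In Hep3B given XL413, the library with the fewest reads, the lowest was 272.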
